A study of Mus musculus with 8 samples.

Results

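The mRNAs of 10 glycolysis genes were followed in mouse embryonic stem cells before and after transcription was blocked. The set holds the glucose transporter Slc2a1 and the enzymes Hk2, Pfkl, Aldoa, Tpi1, Gapdh, Pgk1, Pgam1, Eno1 and Ldha, of 20972 gene symbols on the array. Its members were all probes, controls left out, whose accession maps to these genes, which gave 19 of 55681 probes. Gapdh had 7 probes, Ldha 3, Tpi1 2 and each other gene 1. All 19 were well above background on all 8 arrays, so no member was lost to a filter on dim probes, and each gene is described by its brightest probe.

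All cells, of a line the labels do not name, grew with LIF, which keeps stem cells self-renewing, and with PD173074 at 250 nM, which inhibits the receptors of fibroblast growth factors. The untreated group (3 arrays, 0 h) had no further agent by its treatment label, although its titles carry the same abbreviation for actinomycin D as the treated samples. The vehicle group (2 arrays) received 5 µM actinomycin D, which blocks transcription, and 30 min later ethanol for 4 h. The 4OHT group (3 arrays) received the same actinomycin D and, 30 min later, 250 nM 4-hydroxytamoxifen for 4 h. The labels state neither age nor genotype, nor what 4OHT acts on in these cells. By its title the series is about how Erk, a kinase activated by such receptors, acts on the decay of mRNA, so the comparison of 4OHT with vehicle asks which mRNAs differ while no new transcripts are made.

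Glycolysis splits glucose into pyruvate in the cytosol and yields ATP without oxygen. Slc2a1 carries glucose across the plasma membrane, hexokinases trap it as glucose 6-phosphate, and phosphofructokinase commits it to breakdown. The later enzymes cut the sugar into trioses, oxidise them and recover ATP, and lactate dehydrogenase turns pyruvate into lactate so that oxidation can go on. Pluripotent stem cells rely strongly on this route, and most of its genes are classical targets of Hif1 and Myc. Gapdh is also a common reference gene in expression assays, which makes its behaviour under a transcription block of practical interest.

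Because actinomycin D stops transcription from these start sites, the DNA just upstream is shown for the transporter and for a pair of enzymes with several copies of the Hif1 core motif. The sequences come from RefSeq (build GRCm38.p6) and are the 160 bases before a listed start on the plus strand, in lower case. Capitals mark ACGTG or GCGTG on either strand.
Slc2a1, chr4:119108585-119108744: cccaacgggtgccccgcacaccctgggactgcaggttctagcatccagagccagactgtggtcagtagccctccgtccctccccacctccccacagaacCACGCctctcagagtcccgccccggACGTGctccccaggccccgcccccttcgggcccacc
Pgk1, chrX:106186940-106187099: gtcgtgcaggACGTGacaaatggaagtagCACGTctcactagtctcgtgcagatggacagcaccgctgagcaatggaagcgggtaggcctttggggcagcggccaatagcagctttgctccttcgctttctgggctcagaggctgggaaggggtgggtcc
Ldha, chr7:46845644-46845803: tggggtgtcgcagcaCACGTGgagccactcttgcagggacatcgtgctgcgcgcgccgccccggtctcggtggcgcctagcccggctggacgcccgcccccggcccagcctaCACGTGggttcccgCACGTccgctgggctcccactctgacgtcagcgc

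Motifs were searched on both strands in windows of 300 bases, 250 of them before the start, and all 10 members matched a window (15 windows). ACGTG occurred for 7 members against 21.8% of all symbols with a window, and GCGTG for 6 against 35.2%. Either motif occurred for 9 of the 10, all but Tpi1, against 46.7% of all symbols. The E-box CACGTG, which contains ACGTG, occurred for Ldha among the members, against 8.09% of all symbols. TATAAA occurred for Slc2a1 among the members, against 15.7% of all symbols. A match describes these letters only and is not a binding site.

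Arrays of cells given actinomycin D were dimmer. The 75th percentile of processed signal, the deposited background-subtracted intensity, ranged from 333 to 457 on untreated, 166 to 205 on vehicle and 180 to 209 on 4OHT arrays. The share of spots well above background was 61.0 to 75.7%, 55.6 to 60.0% and 53.0 to 57.4% in the same order. Untreated replicate 2 had the highest values and 612 outlier spots, and the member counts below were the same without it and without any other single array. Vehicle and untreated arrays lay on a slide in separate columns, and all 4OHT arrays lay on another slide, so slide and 4OHT cannot be told apart, nor column and actinomycin D. All 10 embryonic stem cell markers, among them Pou5f1, Nanog and Sox2, were well above background on every array. Their levels were not steady, since with vehicle 4 were called lower on the 75th percentile scale (Klf2 −3.71, Fgf4 −3.63, Sox2 −3.54, Zfp42 −1.06) and 4 higher (Dppa5a, Pou5f1, Tdgf1 and Esrrb, each below 0 on the spike-in scale). The fibroblast genes Postn and Lum were well above background on no array, and 4 to 6 of 10 fibroblast markers were on every array of a group, with summed scaled signals of 2.69 to 5.81. Of the primitive endoderm markers, 5 were called lower with vehicle on the 75th percentile scale (Sox7, Foxa2, Gata6, Pdgfra and Sox17). These 5 were well above background on untreated arrays only and were tested only because of that group, so the filter favoured this direction and the calls are no support. Dab2 was called higher (1.18, against −0.093 on the spike-in scale) and Gata4 did not pass (−0.18). In all, 7 of 7 were well above background on every untreated array and 2 of 7 with vehicle or 4OHT, with summed scaled signals of 0.71 to 0.94 and 0.29 to 0.42. Of 6 trophoblast markers, 4 were well above background on every untreated array and 3 in each other group (summed 5.91 to 11.6), with Elf5 on no array, and the part of these cells in the results was not tested.

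Vehicle against untreated asks how the mRNA pool of each gene fared through the transcription block. The untreated arrays were at 0 h and without ethanol, so time and ethanol cannot be told apart from actinomycin D here. On the scale of each array's 75th percentile, 8 of the 10 genes rose, by 1.04 to 1.43 (log2), and these 8 rises were between −0.23 and 0.15 on a spike-in scale, where none passed the limma test. The 8 are every enzyme except Hk2, and they are grouped here after their values were seen. Slc2a1 (−0.52 ± 0.31, standard error) and Hk2 (0.25 ± 0.13) did not pass on the 75th percentile scale. On that scale 41.5% of all 28493 features were called higher and 15.9% lower, and the median difference was 0.40 over all features and 1.17 over the 10 genes. The count of rises is therefore read against a background in which a rise was common. How many of all features have no overlap between groups was not counted on any scale, so statements of non-overlap below only describe the values. Errors of differences below are standard errors of the limma fit over 3 untreated, 2 vehicle and 3 4OHT arrays, with p-values adjusted by Benjamini-Hochberg over all features. The design text calls the arrays of a group biological replicates without naming separate cultures, so p-values measure the spread between these samples. In bulk RNA, fewer cells of a type and less RNA per cell cannot be told apart.

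The values of entry-step genes come first, as log2 signal relative to the array's 75th percentile. Slc2a1, the transporter, read 6.45, 6.77 and 6.39 on untreated arrays, 6.43 and 5.61 with vehicle, and 6.59, 5.85 and 5.93 with 4OHT. Replicate 1 of vehicle and of 4OHT sat within the untreated range, while the other 3 arrays after actinomycin D were lower, so the groups overlap. The difference between vehicle and untreated was −0.52 ± 0.31 (adjusted p = 0.188), −0.93 without vehicle replicate 1 and −0.11 without vehicle replicate 2. Hk2, which phosphorylates glucose, read 5.08, 4.82 and 5.11 untreated, 5.19 and 5.31 with vehicle, and 4.99, 5.14 and 5.21 with 4OHT. Its vehicle arrays lay above its untreated arrays without overlap, but the difference of 0.25 ± 0.13 did not pass (adjusted p = 0.135) and was −1.03 ± 0.22 on the spike-in scale. Pfkl, the liver-type phosphofructokinase, read 2.76, 3.72 and 3.40 untreated, 4.73 and 4.71 with vehicle, and 4.79, 4.67 and 4.64 with 4OHT. It had the widest untreated spread of the 10 (SD 0.49, n = 3), with replicate 1 lowest, and still no overlap with vehicle. Pfkl rose by 1.43 ± 0.25 on the 75th percentile scale (adjusted p = 0.00286), and differed by 0.15 ± 0.30 when scaled to spike-in probes.

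The triose-producing enzymes moved alike. Aldoa, which cleaves fructose 1,6-bisphosphate, read 9.11, 8.77 and 8.77 untreated, 10.16 and 9.998 with vehicle, and 9.78, 9.87 and 9.88 with 4OHT. Tpi1, which interconverts the trioses, read 6.70, 6.82 and 6.57 untreated, 7.90 and 7.90 with vehicle, and 7.75, 7.67 and 7.71 with 4OHT. For both genes every vehicle array lay above every 4OHT array, and every 4OHT array above every untreated array. Aldoa rose by 1.20 ± 0.13 with vehicle (adjusted p = 0.000434) and Tpi1 by 1.21 ± 0.10 (adjusted p = 0.00021) on the 75th percentile scale, while both were slightly below 0 on the spike-in scale (−0.08 ± 0.21 and −0.07 ± 0.21).

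Gapdh, which oxidises glyceraldehyde 3-phosphate, read 8.95, 8.75 and 8.61 untreated, 10.20 and 9.99 with vehicle, and 9.74, 9.87 and 9.78 with 4OHT. The rise with vehicle was 1.33 ± 0.13, or 2.51-fold (adjusted p = 0.000302), on the 75th percentile scale and 0.05 ± 0.21 on the spike-in scale. Its processed signals before any scaling were 164132, 197119 and 158361 untreated, 196258 and 208673 with vehicle, and 178748, 168758 and 160712 with 4OHT. Unscaled, the 4OHT signals of this brightest probe thus lay within the untreated range, as did 1 of the 2 vehicle signals. The next brightest probe read 180977, 214528 and 183792 untreated, 153820 and 197513 with vehicle, and 164290, 157911 and 153626 with 4OHT. The probe after it read 176118, 198854 and 182004, then 152800 and 170324, then 173178, 172357 and 166201. For both, all 4OHT signals lay below the untreated range. At each of the dimmer Gapdh probes some 4OHT signals lay within it. Pgk1, which makes the first ATP of the pathway, read 8.07, 8.06 and 7.79 untreated, 9.31 and 9.08 with vehicle, and 9.05, 8.96 and 8.90 with 4OHT. It rose by 1.22 ± 0.13 with vehicle (adjusted p = 0.000395) on the 75th percentile scale and was at −0.06 ± 0.23 on the spike-in scale.

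The last steps followed the same pattern. Pgam1, phosphoglycerate mutase, read 8.32, 8.21 and 8.13 untreated, 9.26 and 9.26 with vehicle, and 9.09, 9.26 and 9.15 with 4OHT. Eno1, enolase, read 8.51, 7.63 and 8.27 untreated, 9.32 and 9.26 with vehicle, and 9.06, 9.20 and 9.26 with 4OHT. Untreated replicate 2 was the low array for Eno1, and its rise on the 75th percentile scale was 0.90 without it. Ldha, lactate dehydrogenase, read 8.75, 8.61 and 8.63 untreated, 9.69 and 9.88 with vehicle, and 9.57, 9.74 and 9.68 with 4OHT. No array after actinomycin D overlapped an untreated array for these 3 genes.
With vehicle, Pgam1 rose by 1.04 ± 0.10 (adjusted p = 0.000301), Eno1 by 1.15 ± 0.24 (adjusted p = 0.00598) and Ldha by 1.12 ± 0.11 (adjusted p = 0.000294) on the 75th percentile scale, with −0.23 ± 0.20, −0.12 ± 0.28 and −0.15 ± 0.21 on the spike-in scale.

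**Figure D1:**
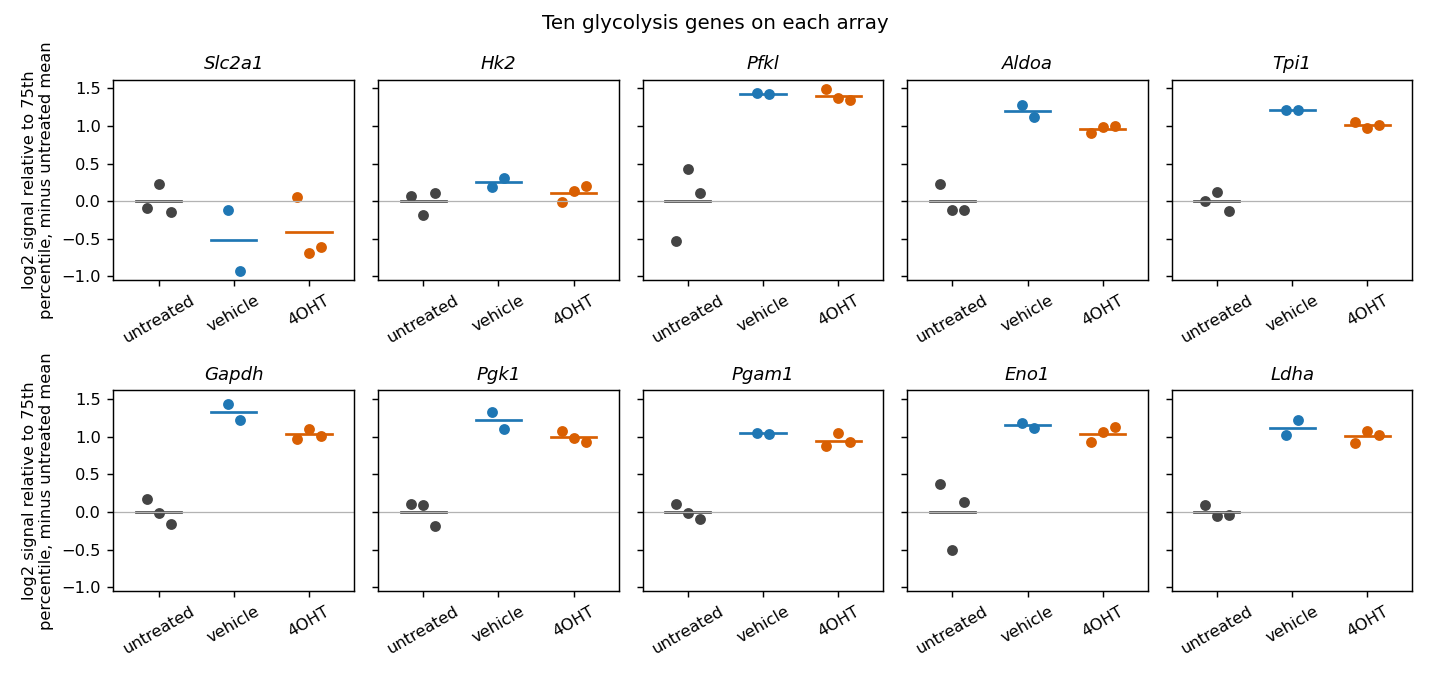
Log2 processed signal relative to the array's 75th percentile, minus the untreated mean, on each of the 8 arrays (points) for the 10 genes, with group means as lines (3 untreated, 2 vehicle, 3 4OHT). For every gene except Slc2a1 and Hk2 all arrays after actinomycin D lie above all untreated arrays on this scale, while Slc2a1 spreads widely after actinomycin D. The share of all features without such overlap was not counted.

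The size of these differences depended on the reference, and for 7 of the 10 genes so did the sign between the 75th percentile and spike-in scales. Slc2a1 was below 0, and Pfkl and Gapdh above 0, on both. These signs are those of the brightest probes. At every other Gapdh probe the vehicle mean was below the untreated mean on the spike-in scale, so there the sign depended on the reference too. For Tpi1 and Ldha the dimmest probe was above 0 on both scales, unlike the brightest. The spike-in scale subtracts the mean of 8 Agilent spike-in probes. On it the 75th percentile itself stood at −3.49 ± 0.09 on the 3 untreated arrays, −4.77 ± 0.09 on the 2 vehicle arrays and −5.08 ± 0.25 on the 3 4OHT arrays (mean ± SD). Labelling started from the same 100 ng of total RNA each time. If the spike-in was added at labelling, its scale is per mass of RNA and not per cell. The labels do not describe adding it, so this is not known. There the 8 enzymes differed between vehicle and untreated by −0.23 to 0.15 (adjusted p from 0.306 to 0.817), whereas Slc2a1 fell by 1.80 ± 0.36 (adjusted p = 0.00218) and Hk2 fell by 1.03 ± 0.22 (adjusted p = 0.00286). On that scale 64.9% of all features were called lower, and the median difference over all features was −0.88. By their difference the 8 enzymes ranked at percentiles 91.3 to 99.2 of all features, against 18.7 for Slc2a1 and 42.2 for Hk2, ranks that any scale subtracting a constant per array leaves as they are. Quantile normalization, which is not of that kind, put the median of the 10 genes at 0.059, below the 0.21 of all features, with 1 gene called higher.

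**Figure D2:**
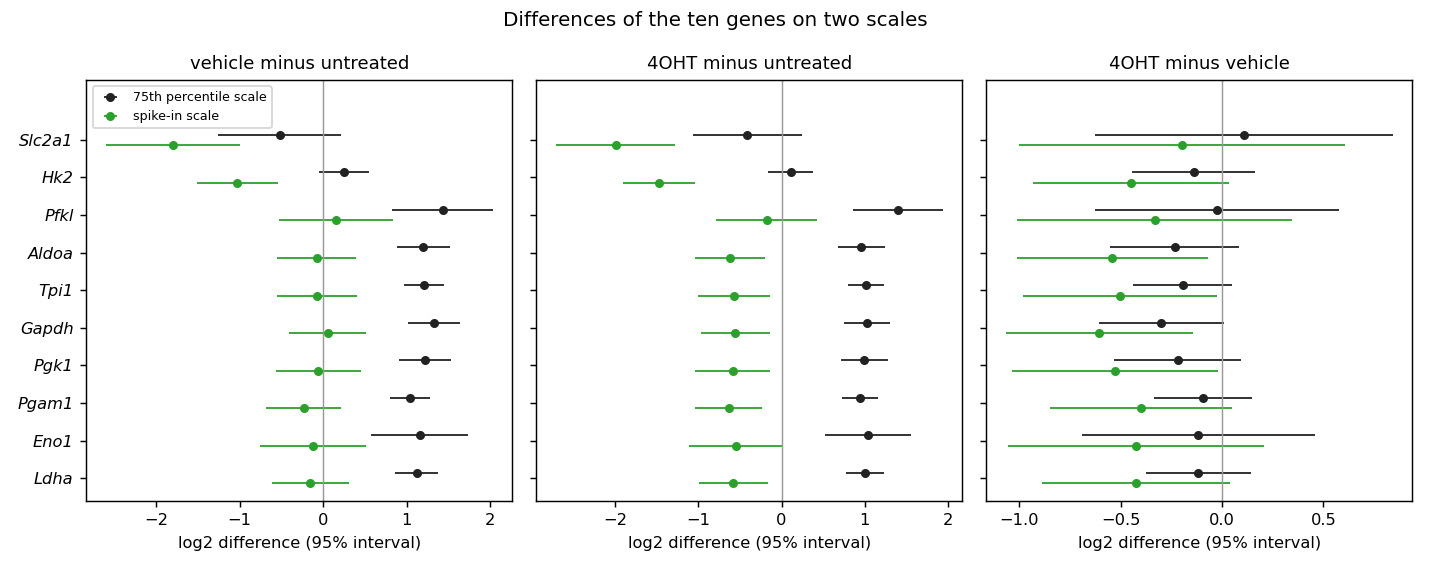
Log2 differences of the 10 genes in the 3 comparisons on the 75th percentile scale (black) and the spike-in scale (green), with 95% intervals from the limma fit. In the comparisons with untreated the 8 enzymes other than Hk2 lie at about 1 or above on the 75th percentile scale, near 0 on the spike-in scale for vehicle and below 0 for 4OHT, while Slc2a1 and Hk2 lie to the left of them on either scale.

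The members were also set against Gapdh itself, array by array. Relative to the mean of the 7 Gapdh probes on the same array, Slc2a1 read −1.74, −1.26 and −1.57 untreated, −2.77 and −3.48 with vehicle, and −2.38, −3.23 and −3.07 with 4OHT. Hk2 read −3.11, −3.20 and −2.85 untreated, −4.01 and −3.77 with vehicle, and −3.98, −3.95 and −3.79 with 4OHT. On this scale every array after actinomycin D was below every untreated array for both genes, and the arrays of vehicle and 4OHT overlap. Slc2a1 fell by 1.61 ± 0.32 with vehicle relative to Gapdh (adjusted p = 0.00447; 95% interval −2.35 to −0.86) and Hk2 fell by 0.83 ± 0.15 (adjusted p = 0.00273; 95% interval −1.18 to −0.49). The other 8 differed by −0.04 to 0.34 on that scale (adjusted p from 0.0699 to 0.810), the Gapdh probe with the highest signal included. Falling relative to Gapdh was common, with 56.9% of all features called lower, and this reference was chosen after the values were seen. Before scaling, the processed signals of Slc2a1 were 29138, 49946 and 34057 untreated, 14305 and 9997 with vehicle, and 20116, 10421 and 11144 with 4OHT. Those of Hk2 were 11241, 12933 and 13984 untreated, 6078 and 8158 with vehicle, and 6626, 6359 and 6739 with 4OHT. For both genes every unscaled signal after actinomycin D was below every untreated one.

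Probes of 1 gene rose together but not always by the same amount. The 7 Gapdh probes rose by 0.90 to 1.33 with vehicle on the 75th percentile scale, and every one was called. The Tpi1 probes rose by 1.21 and 1.31. The 3 Ldha probes rose by 1.12, 1.27 and 1.44, from the brightest to the dimmest. The change of the dimmest Ldha probe, minus that of the brightest, was −0.08 to 0.10 on untreated arrays, 0.41 and 0.23 with vehicle and 0.23 to 0.42 with 4OHT, so the probes of this gene disagreed by more than their untreated spread. For Tpi1 this difference was −0.05 to 0.05 untreated, 0.12 and 0.09 with vehicle and 0.17 to 0.29 with 4OHT. For Gapdh it ran the other way, with −0.08 to 0.06 untreated, −0.31 and −0.17 with vehicle and −0.17 to −0.03 with 4OHT. Gapdh and several other members have processed pseudogenes of near-identical sequence. Probe sequences were not used here, and signal from such copies was not tested.

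**Figure D3:**
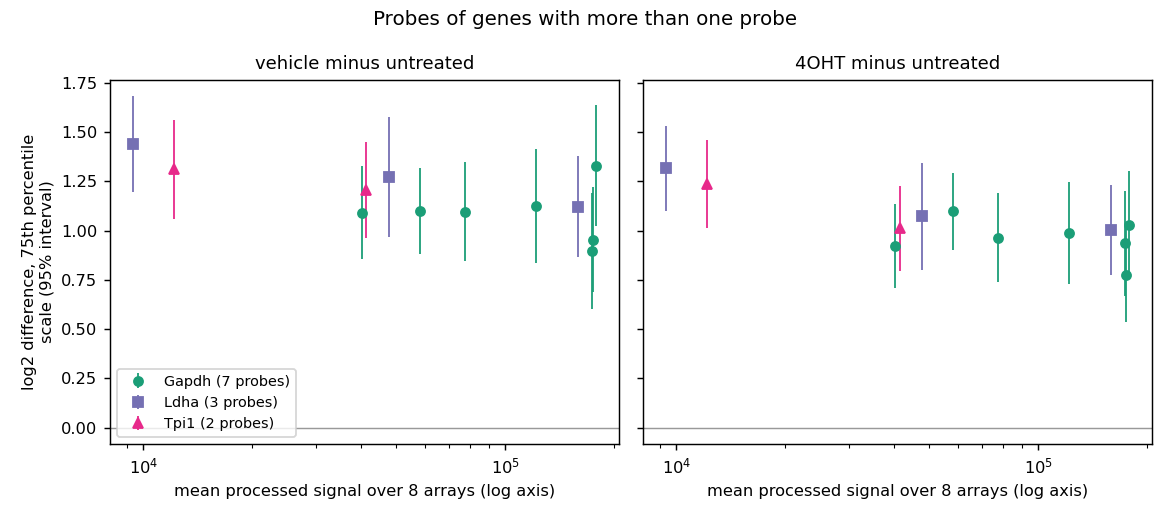
Log2 difference on the 75th percentile scale with its 95% interval for each probe of Gapdh (7), Ldha (3) and Tpi1 (2), against the probe's mean processed signal over 8 arrays (log axis), for vehicle and for 4OHT minus untreated. All probes lie well above 0 on this scale, and the dimmest Ldha probe has the highest difference in either panel.

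4OHT against vehicle compares cells under the same transcription block. None of the 10 genes was called, also without adjustment (0 with an unadjusted p under 0.05, limma). Differences on the 75th percentile scale ran from −0.30 ± 0.13 for Gapdh (adjusted p = 0.274; 95% interval −0.61 to 0.01) to 0.11 ± 0.31 for Slc2a1 (adjusted p = 0.896; 95% interval −0.63 to 0.84). Across all features 0.923% were called higher and 2.58% lower. For Gapdh, Aldoa, Tpi1 and Pgk1 the 3 4OHT arrays all lay below the vehicle arrays, with differences of −0.30, −0.23, −0.20 and −0.22, none past the test. These are values of the brightest probes. The other Gapdh probes differed by −0.18 to 0.04, and the dimmer Tpi1 probe by −0.07. How many of all features separate in this way was not counted, so nothing is read from it. The 95% interval was −0.44 to 0.16 for Hk2, −0.33 to 0.15 for Pgam1, −0.37 to 0.14 for Ldha and −0.44 to 0.05 for Tpi1, and it was widest among the 8 enzymes for Pfkl (−0.63 to 0.58) and Eno1 (−0.69 to 0.46). On the spike-in scale all 10 differences were below 0, from −0.61 (Gapdh) to −0.20 (Slc2a1), and 0 were called, against 4.2% of all features called lower. A value below 0 was common there, with a median of −0.36 over all features and −0.44 over the 10 genes. There 4 members had an unadjusted p under 0.05 (limma), and the share of all features under that threshold was not counted. Back on the 75th percentile scale, the sign for Slc2a1 (0.11 with all arrays) rested on single arrays. It was −0.30 without vehicle replicate 2, −0.12 without 4OHT replicate 1 and 0.52 without vehicle replicate 1.

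4OHT against untreated shares its untreated arrays with the vehicle comparison and its 4OHT arrays with the last one. The same 8 genes by name rose on the 75th percentile scale, by 0.95 (Pgam1) to 1.40 (Pfkl), with adjusted p from 0.00015 to 0.00526, and all 8 were below 0 on the spike-in scale. Across all features 41% were called higher and 18.7% lower on the 75th percentile scale. Slc2a1 (−0.41 ± 0.28, adjusted p = 0.237) and Hk2 (0.11 ± 0.11, adjusted p = 0.446) did not pass there. On the spike-in scale 8 of the 10 fell, against 93.5% of all features called lower. Slc2a1 fell by 1.997 ± 0.32 (adjusted p = 0.000314) and Hk2 fell by 1.47 ± 0.19 (adjusted p = 8.77e-05), while the 6 called enzymes fell by 0.55 to 0.63. Pfkl (−0.18 ± 0.27) and Eno1 (−0.55 ± 0.25) did not pass on it. The median over all features was −1.27. Relative to Gapdh, Slc2a1 fell by 1.37 ± 0.28 (adjusted p = 0.00512) and Hk2 by 0.85 ± 0.13 (adjusted p = 0.00137), with 57.1% of all features called lower.

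The mean levels of the 8 enzymes were ordered vehicle, 4OHT, untreated from high to low on the 75th percentile scale, and the vehicle and 4OHT means did not differ past the test. For Slc2a1 the order was untreated, 4OHT, vehicle, and no neighbours differed past the test on that scale. For Hk2 it was vehicle, 4OHT, untreated, again with no pair past the test.

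Other genes of glucose metabolism were listed by role and described beside the members. Their counts with vehicle stand against 41.5% of all features called higher and 15.9% lower on the 75th percentile scale. On the spike-in scale 64.9% of all features were called lower, with a median of −0.88. Of 20 other glycolysis enzymes, 15 were tested, and 9 rose and 0 fell with vehicle on the 75th percentile scale (median 0.72, and −0.56 on the spike-in scale, with 5 called lower there). Pgam2 (1.26 ± 0.20) and Aldoc (1.22 ± 0.11), isoforms of the mutase and the aldolase, rose most on the 75th percentile scale and were at −0.01 and −0.06 on the spike-in scale. Gpi1, which isomerises glucose 6-phosphate, rose by 1.20 ± 0.12 and Pkm, pyruvate kinase, by 1.19 ± 0.12, against −0.07 and −0.09 on the spike-in scale. Hk1, the other main hexokinase, was at 0.63 ± 0.28 (adjusted p = 0.0928) and −0.65 on the spike-in scale.

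Transporters and regulators were more mixed, against the same shares of all features (41.5% higher and 15.9% lower, and 64.9% lower on the spike-in scale). Of 9 tested transporters of glucose and lactate, 3 rose and 3 fell with vehicle on the 75th percentile scale (median 0.14, and −1.13 on the spike-in scale, with 6 called lower there). Bsg, the chaperone of lactate transporters, rose by 1.02 ± 0.09, Slc16a1, a lactate transporter, by 0.77 ± 0.12, and Slc2a3, a neuronal-type glucose transporter, by 0.71 ± 0.12, and all 3 were below 0 on the spike-in scale (−0.26, −0.50 and −0.56). Slc2a5, a fructose transporter, fell by 1.60 ± 0.56 and Slc2a4, the insulin-responsive transporter, fell by 0.99 ± 0.13 on the 75th percentile scale. Among 16 regulators of glycolytic flux, 3 rose and 6 fell (median −0.16, and −1.43 on the spike-in scale, with 15 called lower there). Myc fell by 4.72 ± 0.13 and Mycn fell by 2.85 ± 0.18 on the 75th percentile scale. Hif1a rose by 0.49 ± 0.10 and Pfkfb1, which sets fructose 2,6-bisphosphate, by 0.91 ± 0.10, against −0.78 and −0.36 on the spike-in scale. Pfkfb3 was at 0.25 ± 0.15 (adjusted p = 0.174).

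The neighbouring pathways came next, again against 41.5% of all features called higher and 15.9% lower on the 75th percentile scale. On the spike-in scale 64.9% of all features were called lower, with a median of −0.88. All 16 genes of the tricarboxylic acid cycle rose with vehicle on the 75th percentile scale (median 0.93, and −0.34 on the spike-in scale), with 4 called lower and 0 higher there, led by Sdhb (1.25 ± 0.08) and Mdh2 (1.08 ± 0.13), which were at −0.02 and −0.20 on the spike-in scale. Of 7 genes of the pentose phosphate pathway 6 rose and 1 fell (median 0.94, and −0.33 on the spike-in scale, with 2 called lower there). Taldo1 (1.098 ± 0.12) and Pgls (1.07 ± 0.14) rose most on the 75th percentile scale, with −0.18 and −0.21 on the spike-in scale, and Rpia fell by 0.39 ± 0.11. Of 10 genes that bring pyruvate into mitochondria 5 rose and 2 fell (median 0.35, below the 0.40 of all features, and −0.93 on the spike-in scale, with all 10 called lower there). Mpc2, of the pyruvate carrier, rose by 0.70 ± 0.09 and Pdhb, of pyruvate dehydrogenase, by 0.62 ± 0.10 on the 75th percentile scale, with −0.57 and −0.66 on the spike-in scale. Pdp1, the phosphatase that activates that enzyme, fell by 1.33 ± 0.17 and Pdhx, its anchoring subunit, fell by 0.92 ± 0.09.

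**Figure D4:**
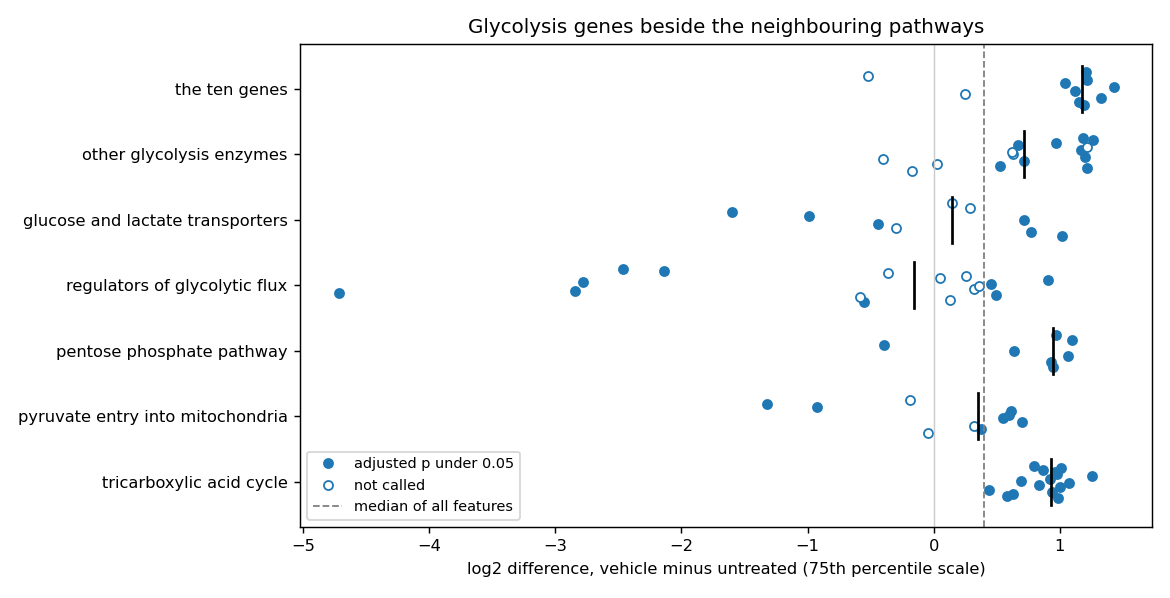
Log2 difference, vehicle minus untreated, on the 75th percentile scale for each tested gene of the 10-gene set and of 6 related lists, filled where the adjusted p is under 0.05, with list medians as black bars and the median of all features (0.40) as a dashed line. The 8 enzymes, the tricarboxylic acid cycle and most of the pentose phosphate pathway lie to the right of that line, while regulators reach down to Myc at −4.72.

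Between 4OHT and vehicle few of these genes differed, as among all features. Of all features 0.923% were called higher and 2.58% lower on the 75th percentile scale, so few calls in lists of this size say little about these genes. No other glycolysis enzyme, transporter, pentose phosphate or tricarboxylic acid cycle gene was called in either direction (limma). At an unadjusted p under 0.05 (limma) these lists had 1 higher and 2 lower, 1 and 0, 0 and 1, and 0 and 1. The share of all features under that threshold was not counted. Pdk4, a kinase that inactivates pyruvate dehydrogenase, was higher with 4OHT by 2.17 ± 0.16 (adjusted p = 0.00418), and by 1.86 when scaled to spike-in probes. Mycn fell by 1.41 ± 0.18 (adjusted p = 0.0154). Pdhx fell by 0.81 ± 0.09 (adjusted p = 0.0106) and Dlat, the acetyltransferase core of pyruvate dehydrogenase, fell by 0.52 ± 0.09 (adjusted p = 0.0285), which did not pass when scaled to spike-in probes (adjusted p = 0.0632). The fixed genes Pkm (−0.01), Hk1 (−0.09), Gpi1 (−0.30), Slc2a3 (0.02), Slc16a1 (−0.08), Pfkfb3 (0.26), Hif1a (0.01) and Myc (−0.20) did not pass on the 75th percentile scale.

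Against untreated, the counts with 4OHT on the 75th percentile scale were 9 higher and 0 lower of 15 other glycolysis enzymes, led by Pkm (1.17 ± 0.11) and Pgam2 (1.14 ± 0.18). They were 4 and 3 of 9 transporters, led by Bsg (0.93 ± 0.08) and Slc2a5 (−2.12 ± 0.50), and 5 and 8 of 16 regulators, led by Pfkfb1 (0.91 ± 0.09) and Myc (−4.91 ± 0.11). Counts were 6 and 1 of 7 pentose phosphate genes, 16 and 0 of 16 tricarboxylic acid cycle genes, and 4 and 3 of 10 genes of pyruvate entry, against 41% and 18.7% of all features. On the spike-in scale 0 genes of these 6 lists were called higher, and 11 of 15 other glycolysis enzymes, 9 of 9 transporters, 16 of 16 regulators, 6 of 7 pentose phosphate genes, 16 of 16 tricarboxylic acid cycle genes and 10 of 10 genes of pyruvate entry were called lower, against 93.5% of all features. Every gene just named as higher was below 0 on the spike-in scale, from −0.67 (Pfkfb1) to −0.41 (Pkm). Pfkfb3 was called higher here (0.51 ± 0.13, adjusted p = 0.012) on the 75th percentile scale and stood at −1.07 on the spike-in scale.

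The features whose 8-array profile was most like that of Gapdh, by the mean absolute log2 difference after centring each on its own mean over 14922 symbols, were Rpl23a (0.035), Rpl27 (0.042) and 1700073E17Rik (0.043). The first pair encode ribosomal proteins. Among the other members Aldoa (0.064) and Pgk1 (0.075) were nearest to Gapdh and Slc2a1 (0.773) was farthest. For Slc2a1 the nearest were Ccdc18 (0.087), Rnf224 (0.094) and Mdfic (0.100), and among members Hk2 (0.427). These distances describe 8 arrays, and any scale that subtracts a constant per array leaves them as they are.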

How the data were processed

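RNA of 8 samples was hybridised to single-colour Agilent arrays. Per the file headers, Agilent Feature Extraction 11.0.1.1 made the deposited intensity used here, a linear, background-subtracted processed signal, with an array design on mm9. The labels name the dye Cy5, but the files hold a green channel. The deposited value table equals these signals within 0.5% for 100% of values, with medians of 21.2, 45.0 and 24.6 (untreated), 12.2 and 13.9 (vehicle) and 13.5, 11.3 and 12.4 (4OHT), so it is linear and uncentred. Depth does not apply to arrays, and their number limits the precision.

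Of 59305 spots that are not controls, spots of 1 probe were averaged, giving 55681 probes, and 466 probes without a value on an array were dropped. Signals were scaled to each array's 75th percentile and taken as log2. Probes well above background on every array of a group were kept (33013). Accessions were matched to RefSeq symbols (GRCm38.p6) for 27656 probes, and the brightest probe stood for a symbol, giving 28493 features. limma 3.58.1 in R 4.3.3 fitted 3 groups at once (5 residual degrees of freedom), two-sided, Benjamini-Hochberg adjusted, called under 0.05. The fit was tested on simulated data.

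The members and the 6 gene lists were chosen with earlier results of these data known. The text names all members, the 2 largest called rises and falls per list and comparison (not all are printed), 8 fixed genes (Pkm, Hk1, Gpi1, Slc2a3, Slc16a1, Pfkfb3, Hif1a, Myc), and the 3 features most like Gapdh and Slc2a1. Alternatives were normexp with an offset of 50, quantile, median, spike-in (8 of 10 probes) and no scaling, the value table, other filters and probe choices, other fits, a 2-fold minimum, a replicate block and leave-one-out fits. Scaling to the Gapdh probes, and leaving out untreated replicate 2 with vehicle replicate 1, were added after seeing the data.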

Additional observations from a re-analysis of the deposited data

How the results depend on the processing

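Scaling decided the counts of members called. With vehicle against untreated, the 8 called higher became 1 under quantile normalization and 0 under no scaling, spike-in scaling or Gapdh scaling, and the 0 called lower became 1 under normexp or quantile normalization and 2 under no scaling, spike-in or Gapdh scaling. With 4OHT against untreated, the 8 higher became 1 (quantile), 5 (at least 2-fold) and 0 (no scaling, spike-in, Gapdh), and the 0 lower became 1 (normexp), 2 (quantile, no scaling, Gapdh) and 8 (spike-in). Leaving out arrays gave 8 higher and 0 lower in either comparison with untreated and 0 between 4OHT and vehicle. Features called higher with vehicle were 72.3% of all calls in the main scale, 84.8% under normexp, 60.2% under quantile normalization, 67.0% under median scaling, 0.27% unscaled, 0.17% on the spike-in scale and 0.43% on the Gapdh scale. These scalings subtract a different reference per array, while quantile normalization also changes the spacing of bright probes. The cause of the quantile result was not tested.

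With vehicle, signs turned under spike-in scaling for Hk2 (−1.03), Aldoa (−0.080), Tpi1 (−0.069), Pgk1 (−0.059), Pgam1 (−0.23), Eno1 (−0.12) and Ldha (−0.15), under no scaling for Hk2 (−0.85) and Pgam1 (−0.055), under Gapdh scaling for Hk2 (−0.83) and Pgam1 (−0.043), and under quantile normalization for Pgam1 (−0.061) and Ldha (−0.0083). Hk2, not called in the main scale, also turned under quantile normalization (−0.34) and normexp (−0.052), without being called. With 4OHT against untreated they turned under spike-in scaling for Hk2 (−1.47), Pfkl (−0.18), Aldoa (−0.62), Tpi1 (−0.57), Gapdh (−0.55), Pgk1 (−0.59), Pgam1 (−0.63), Eno1 (−0.55) and Ldha (−0.58). Under no scaling they turned for Hk2 (−0.95), Aldoa (−0.094), Tpi1 (−0.044), Gapdh (−0.027), Pgk1 (−0.059), Pgam1 (−0.11), Eno1 (−0.019) and Ldha (−0.052), under Gapdh scaling for Hk2 (−0.85) and Pgam1 (−0.0098), and under quantile normalization for Hk2 (−0.45). Slc2a1 became called lower with vehicle under normexp (−0.89, adjusted p = 0.0042) and quantile normalization (−1.31, adjusted p = 0.018).

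Of 717 values of single members under alternatives, 637 kept their side of the threshold without a called value turning, and 17 of these changed sign with neither value called. Replicate numbers are shared between groups, and deviations of same-numbered arrays correlated between −0.19 and 0.36. Vehicle with 4OHT gave 0.36 (replicate 1) and 0.22 (replicate 2). Arrays of unlike number were not correlated for comparison, so whether the numbers pair the arrays was not settled. With the replicate as a block, 8 members were higher and 0 lower with vehicle, and no other count of members changed. The arrays per group (3, 2 and 3) and their slides limit what can be told of differences below about the intervals given. The bright member probes are far above background, so signal over background limits dim genes of the lists rather than the members.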
